A study of Mus musculus with 50 samples.

Results

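The genes described here are 10 structural and marker genes of mural cells, the cells that wrap blood vessels. They were chosen by name among 52636 genes listed for 50 mouse thyroid libraries, and all 10 were found by Ensembl ID and passed the filter on low counts in every comparison. Of these, 6 mark pericytes, namely Pdgfrb (ENSMUSG00000024620), Cspg4 (ENSMUSG00000032911), Kcnj8 (ENSMUSG00000030247), Abcc9 (ENSMUSG00000030249), Higd1b (ENSMUSG00000020928) and Mcam (ENSMUSG00000032135). The other 4, Myh11 (ENSMUSG00000018830), Acta2 (ENSMUSG00000035783), Tagln (ENSMUSG00000032085) and Des (ENSMUSG00000026208), mark vascular smooth muscle. RNA was sequenced from whole thyroids of male C57BL/6 mice aged 10 to 12 weeks per the series description and 10 to 14 weeks per the labels. Each mouse received antibody by 1 intraperitoneal injection. Control mice were given anti-ragweed isotype antibody (RW) at 40 mg/kg. Ligand blockade (aJ1aJ2) consisted of anti-Jag1 and anti-Jag2 at 20 mg/kg each. In the group aN1aN2 the receptors were blocked, with 5 mg/kg anti-Notch1 and 10 mg/kg anti-Notch2, and aN1aN2aN3 received 20 mg/kg anti-Notch3 in addition. The 10 groups of 5 libraries were RW, aJ1aJ2 and aN1aN2 at 15 hours, the same treatments at 5 days, RW and aJ1aJ2 at 7 days in a first set, and aJ1aJ2 and aN1aN2aN3 at 7 days in a second set. RW of that second set is not analysed here, so its aJ1aJ2 group is the reference, and an effect there is receptor blockade relative to ligand blockade and not to an untreated thyroid. Thyroid hormone injections are mentioned in the series text, but no label says which mice received them.

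Pericytes sit on capillaries, and smooth muscle cells ring arterioles and larger vessels. Both lineages are recruited by endothelial PDGF-B acting on the receptor encoded by Pdgfrb, and both carry Notch3, which is activated by Jagged ligands on neighbouring endothelial cells and supports the survival and maturation of mural cells. In the thyroid a dense capillary net surrounds each follicle, so mural cells are part of the normal gland. Smooth muscle contractile genes are driven by the factor SRF with its partner myocardin, which bind a DNA element called the CArG box. In whole tissue, fewer cells of a type and less RNA per cell cannot be told apart.

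Among the members, 6 of 10 had an entry in a RefSeq promoter table (build GRCm38.p6). They were Cspg4, Kcnj8, Abcc9, Mcam, Acta2 and Des, while Pdgfrb, Higd1b, Myh11 and Tagln are named only. The strict CArG box was searched in both orientations in 250 bases before and 50 after each start. It was found in 0 of the 6 and in 1.63% of 32851 promoters. With at most 1 G or C allowed in its core, it was found only in Acta2, at 2 places, against 9.98% of all promoters. The letters GTGGGAA, a core of the binding sequence of the Notch partner RBPJ, were found on either strand in 0 of the 6 and in 6.38% of all promoters. The 250 bases before the starts of Acta2 and Des are shown 5′ to 3′ on the gene's strand, because these genes are the pair shared with other muscle and their levels in these libraries moved apart. Capitals mark the relaxed CArG matches, whose first bases lie 84 and 34 bases before the start of Acta2.
Acta2, chr19:34255374-34255623, minus strand: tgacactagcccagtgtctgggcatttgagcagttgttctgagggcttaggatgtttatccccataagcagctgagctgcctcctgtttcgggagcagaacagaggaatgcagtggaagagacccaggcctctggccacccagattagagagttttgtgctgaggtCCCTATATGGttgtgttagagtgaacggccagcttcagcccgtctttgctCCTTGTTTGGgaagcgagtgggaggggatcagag
Des, chr1:75360042-75360291, plus strand: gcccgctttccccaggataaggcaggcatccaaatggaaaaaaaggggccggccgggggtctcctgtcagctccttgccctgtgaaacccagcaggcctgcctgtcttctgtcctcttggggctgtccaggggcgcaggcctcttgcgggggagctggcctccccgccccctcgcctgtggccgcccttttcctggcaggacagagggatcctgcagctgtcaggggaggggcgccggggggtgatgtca
A match describes letters only, and the promoters without one were searched in these windows alone.

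Total counts ranged from 15271242 to 52835846 per library. The libraries differed in tissue content within every group. The summed level of 12 fast skeletal muscle genes ranged from 0.0360% to 26.3% of scaled counts. In RW replicate 3 at 5 days the muscle sum was the highest of the 50 libraries, while the summed level of 9 thyroid follicle genes was 7788 counts per 1000000 (CPM) against 380520 to 502094 CPM in the other 4 libraries of that group, so muscle genes far exceeded those of the labelled tissue there. The muscle sum was above the follicle sum in 7 libraries in all. At 5 days they were RW replicate 3, aJ1aJ2 replicate 3 (112959 against 24922 CPM) and aN1aN2 replicate 1, and at 7 days aJ1aJ2 replicate 2 of the first set and aJ1aJ2 replicates 4 (157637 against 13050 CPM) and 5 (45300.2 against 24838 CPM) and aN1aN2aN3 replicate 1 of the second. In aN1aN2 replicate 1, aJ1aJ2 replicate 2 and aN1aN2aN3 replicate 1 the sums were close. Results are given below with and without these muscle-rich libraries where a call changed or, in the 6 comparisons of groups, a sign changed. In the contrasts between times the sign of some members also changed without these libraries, and those values are not given. In the second 7-day set, follicle genes summed to 13050 to 24838 CPM under aJ1aJ2 and 28433 to 49615 CPM under aN1aN2aN3, without overlap. The part of this difference in the results of that set was not tested. All 10 endothelial genes of a fixed list were detected in every group.

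Gene levels below are in CPM, scaled by TMM. In the 40 libraries outside the second set, the median level per kilobase of exon was highest for Des, the muscle intermediate filament, at 97.1 CPM per kb. It was followed by Mcam, an adhesion molecule of pericytes and also of endothelium, at 27.1 CPM per kb, and by Acta2, smooth muscle actin, at 23.9 CPM per kb. Abcc9, the regulatory subunit of the vascular ATP-sensitive potassium channel, stood at 12.3 CPM per kb and Kcnj8, its pore subunit, at 4.14 CPM per kb. Pdgfrb stood at 9.0 and Myh11, the smooth muscle myosin heavy chain, at 8.92 CPM per kb. Tagln, an actin-binding protein of smooth muscle, reached 3.24, Higd1b, a small mitochondrial protein enriched in pericytes, 2.93, and Cspg4, the NG2 proteoglycan, 1.17 CPM per kb. Exons of Abcc9, Mcam, Tagln and Des overlap a gene on the opposite strand, which for Tagln includes the protein-coding Pcsk7, and Acta2 is nearly identical to the other muscle actins. Whether counting used the strand is unknown here, so the levels of Abcc9, Mcam, Tagln and Des are uncertain to that extent. For Acta2, whose exons overlap no other gene, the uncertainty lies in its likeness to the other actins.

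**Figure D1:**
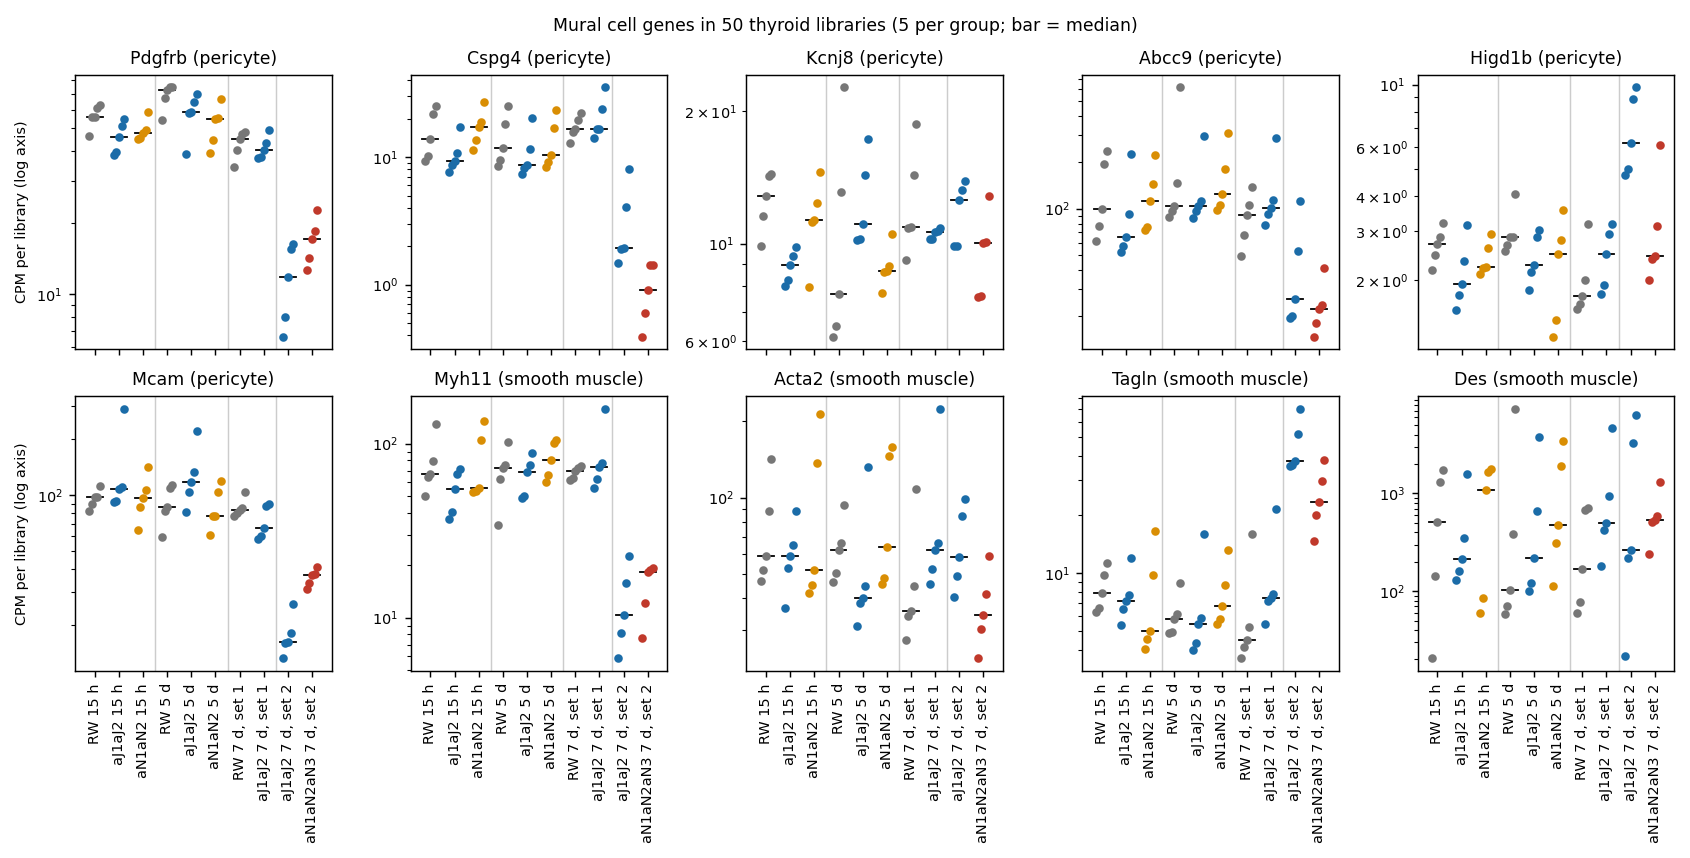
Level of each of the 10 genes in all 50 libraries, in CPM on a log axis (each panel has its own range), by group. Points are libraries and bars are medians of 5. Pdgfrb spans 6.61 to 74.8 CPM and Des 20.6 to 7411 CPM, and the second 7-day set lies below all other groups for Pdgfrb, Mcam and Myh11.

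Des varied far more than any other member. The pooled SD within groups was 2.22 on the log2 scale for Des, at the 99.5th percentile of 16196 genes with a mean of at least 1 CPM, against 0.28 for Pdgfrb, which was the steadiest member, and 0.36 for the median gene. Des moved with skeletal muscle. Across the 50 libraries, with each group centred on its mean, Des had a Pearson correlation of 0.99 with the mean of the 12 fast skeletal muscle genes. In the 10 libraries with the least muscle Des was between 20.6 and 120.0 CPM, and in the 10 with the most it was between 1319.9 and 7411 CPM. All libraries share these scaled totals, so the correlations are given as descriptions.

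A pair of pericyte genes moved with muscle as well. Abcc9, whose product also forms the ATP-sensitive potassium channel of skeletal and cardiac muscle, had a correlation of 0.88 with the muscle genes, and Cspg4 had 0.82. Kcnj8 stood at 0.46. Pdgfrb (−0.06), Mcam (−0.03) and Higd1b (−0.22) did not follow muscle. Other tissues had correlations with these genes too. Pdgfrb had 0.57 with endothelial genes, and Mcam had 0.24 with those and 0.56 with genes of Schwann cells (glia of peripheral nerves). With fibroblast genes Cspg4 had 0.76, Abcc9 0.62 and Kcnj8 0.57, against 0.18 for Pdgfrb, 0.16 for Mcam and 0.01 for Higd1b. The part of these tissues was not tested. Abcc9 and its channel partner Kcnj8 correlated at 0.53, less than Abcc9 with Cspg4 (0.88) or with Des (0.88). In RW replicate 3 at 5 days Abcc9 reached 618 CPM, while the other 4 libraries of the group held 87.8 to 146 CPM.

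The contractile genes formed a second set. Acta2 correlated with Tagln at 0.90 and with Myh11 at 0.74, and Myh11 with Tagln at 0.58. Their correlations with fast skeletal muscle were 0.32 for Acta2, 0.17 for Tagln and 0.17 for Myh11, and with Des 0.35, 0.18 and 0.20. Acta2 and Des could be high in different libraries. In aJ1aJ2 replicate 3 of the first 7-day set Acta2 was 225 CPM and Des 180 CPM, whereas replicate 2 of the same group had 52.3 CPM of Acta2 and 4735 CPM of Des. Fibroblast genes moved with all 3 (correlations 0.67 for Acta2, 0.52 for Tagln and 0.49 for Myh11), and they were not alone in this. In the same order, genes of Schwann cells, the glia of peripheral nerves, had 0.61, 0.57 and 0.45. Cartilage genes had 0.45, 0.31 and 0.45, airway epithelial genes 0.47, 0.33 and 0.41, and slow skeletal muscle genes 0.48, 0.32 and 0.36. Airway epithelial genes, which mark tracheal tissue, summed to 8080 CPM in RW replicate 5 and 9077 CPM in aN1aN2 replicate 5 at 15 hours, the libraries with the most Acta2 in their groups (141 and 214 CPM). The part of neighbouring tissue in these levels was not tested.

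**Figure D2:**
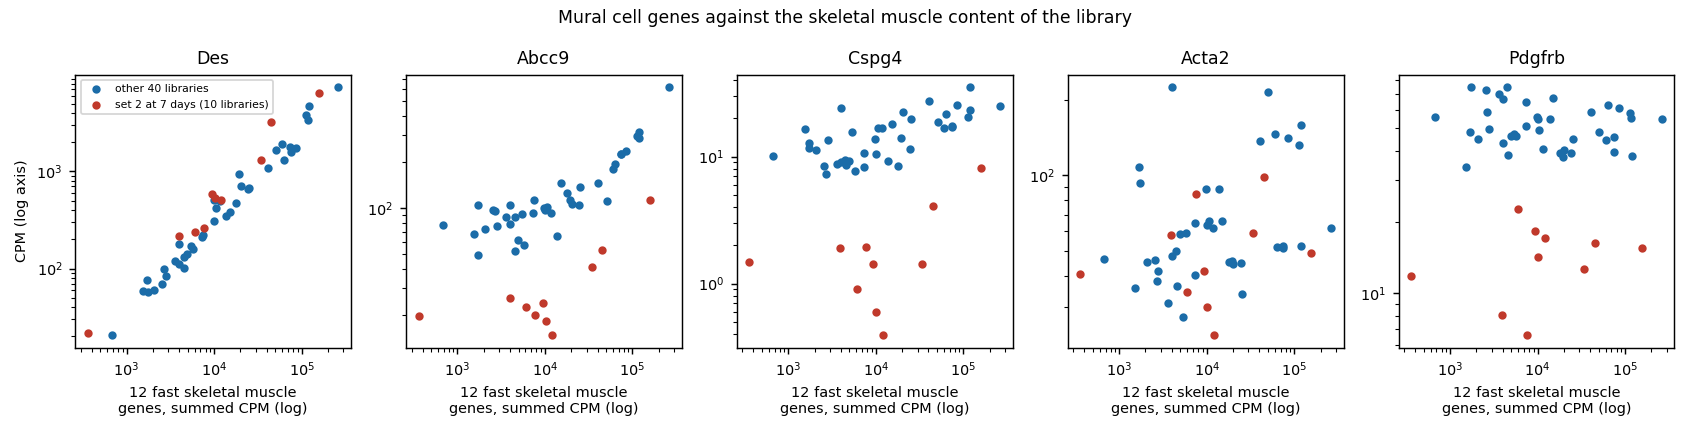
Level of 5 members in CPM against the summed CPM of 12 fast skeletal muscle genes, both on log axes, with 1 point per library (red: the 10 libraries of the second 7-day set). Des rises along with muscle over the whole range, Abcc9 and Cspg4 rise in the muscle-rich libraries, and Acta2 and Pdgfrb show little or no such rise.

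The genes whose pattern over the 50 group-centred libraries was most like the mean of the 6 pericyte members were Itga11 (r = 0.90), Lama2 (0.87), Zcchc24 (0.87), Zeb2 (0.87) and Thra (0.86). Rgs5, a signalling regulator often used to mark pericytes, had 0.65, Ndufa4l2, another pericyte gene, 0.31, the receptor Notch3 −0.12 and the Notch target Heyl −0.55. For the mean of the 4 smooth muscle members they were Thbs4 (0.90), Igf2 (0.89), Slc47a1 (0.89), Casq2 (0.89) and 9330159F19Rik (0.88). Casq2 is the calcium-storing protein of cardiac and slow muscle. The means were taken without bringing genes to the same spread, so members that vary more weigh more. Within-group SDs were 2.22 for Des against 0.52 to 0.73 for the other smooth muscle members. They were 0.81 for Abcc9 and 0.57 for Cspg4 against 0.28 to 0.39 for the other pericyte members. Both means thus lean towards the members that moved with muscle. With the fast muscle genes Rgs5 had 0.52, Ndufa4l2 0.23, Notch3 −0.24 and Heyl −0.68. With thyroid follicle genes these 4 had −0.70, −0.33, 0.49 and 0.83 in the same order, and with endothelial genes −0.16, −0.18, 0.64 and 0.68. The part of tissue content in these correlations was not tested.

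Differences in the members were found in 1 of 6 comparisons, that of aN1aN2aN3 with aJ1aJ2 at 7 days. It asks how blocking 3 receptors differs from blocking the ligands. Cspg4, Higd1b and Tagln were lower and Mcam was higher under aN1aN2aN3, so 4 of 10 members passed an adjusted p of 0.05 in edgeR's quasi-likelihood test. Of all 18450 genes tested there, 19.6% passed, 9.19% higher and 10.4% lower. An unadjusted p below 0.05 was reached by 5 of 10 members and 35.6% of all genes. With 10 genes, nothing particular to the members is read from their share.

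Among the pericyte genes, Cspg4 was 1.91, 1.49, 1.95, 8.12 and 4.05 CPM in the 5 aJ1aJ2 libraries and 1.42, 0.598, 0.392, 1.42 and 0.909 CPM in the 5 aN1aN2aN3 libraries. Every aN1aN2aN3 library lay below every aJ1aJ2 library, a separation seen in 15.1% of genes in this comparison. The highest Cspg4 values came from aJ1aJ2 replicates 4 and 5, which also held the most Des of the set (6416 and 3256 CPM). Its log2 fold change was −1.94 (SE 0.53, adjusted p = 0.0255), and with the muscle level as a covariate −1.72 (adjusted p = 0.00709). On the authors' FPKM, as log2(FPKM + 0.1), limma gave −0.64 with an adjusted p of 0.0709, and without the 3 muscle-rich libraries of the set edgeR gave −1.11 with an adjusted p of 0.0582, so the call of Cspg4 was lost in both. The added 0.1 is not small beside the FPKM of Cspg4, whose median was 0.319 in the 30 libraries scaled together with this set. Those 30 libraries include groups with more Cspg4, at means of 10.7 to 21.4 CPM. In this set the means were 3.50 CPM under aJ1aJ2 and 0.947 CPM under aN1aN2aN3, so the offset is larger still beside the values compared here. Such an offset shrinks a fold change, and its part in the value of −0.64 was not tested. Higd1b was 6.20, 9.81, 8.88, 5.02 and 4.75 CPM under aJ1aJ2 and 6.07, 2.39, 2.45, 3.12 and 2.01 CPM under aN1aN2aN3. Only aN1aN2aN3 replicate 1 reached into the aJ1aJ2 range, and the log2 fold change was −1.16 (SE 0.34, adjusted p = 0.0328). Mcam went the other way, at 16.0, 13.3, 16.3, 18.2 and 26.2 CPM under aJ1aJ2 and 33.6, 31.3, 37.9, 41.1 and 37.3 CPM under aN1aN2aN3. The groups did not overlap, and the log2 fold change was 0.95 (SE 0.19, adjusted p = 0.00616).

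Mcam is also made by endothelial cells. Of 10 endothelial genes in this comparison, Pecam1 (log2 fold change 1.15), Cdh5 (1.09) and Esam (0.98), which encode junction and adhesion proteins, were higher, and the VEGF receptor gene Kdr (−0.99) and the sialomucin gene Emcn (−1.18) were lower. The summed endothelial level was 358 to 412 CPM under aJ1aJ2 and 374 to 580 CPM under aN1aN2aN3. Scaled to endothelial genes, Mcam was higher by 0.79 on the log2 scale (adjusted p = 0.0284).

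The other 3 pericyte genes did not pass in this fit. Pdgfrb was 8.01, 11.8, 6.61, 15.5 and 16.3 CPM under aJ1aJ2 and 12.6, 14.2, 17.1, 18.4 and 22.6 CPM under aN1aN2aN3, with a log2 fold change of 0.48 (95% interval −0.11 to 1.07, adjusted p = 0.226). It passed without the 3 muscle-rich libraries (log2 fold change 1.03, edgeR adjusted p = 0.00557), with limma-voom and library quality weights (0.86, adjusted p = 0.00444) and in 1 edgeR fit of all 50 libraries (0.51, adjusted p = 0.0352). Abcc9 had −1.01 (SE 0.53, adjusted p = 0.198) and Kcnj8 −0.37 (SE 0.20, adjusted p = 0.209). Without the muscle-rich libraries Abcc9 had −0.15. Thus Pdgfrb and Cspg4, both used to define pericytes, had values of opposite sign in the same libraries.

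Of the 4 smooth muscle genes Tagln passed in edgeR. It was 51.8, 36.0, 70.4, 37.6 and 35.4 CPM under aJ1aJ2 and 38.1, 19.9, 14.6, 29.7 and 23.1 CPM under aN1aN2aN3. Replicate 1 of aN1aN2aN3 overlapped with aJ1aJ2, and the log2 fold change was −0.93 (SE 0.27, adjusted p = 0.0331). Acta2 was 58.2, 40.6, 84.6, 49.2 and 98.8 CPM under aJ1aJ2 and 58.9, 30.2, 23.3, 41.6 and 34.5 CPM under aN1aN2aN3, a log2 fold change of −0.87 (SE 0.29) with an adjusted p of 0.0555. Acta2 passed with DESeq2 (adjusted p = 0.0307), limma-voom and library weights (0.0196), endothelial scaling in edgeR (0.0482) and without the muscle-rich libraries (0.0216), whereas in the edgeR fit of all 50 libraries Tagln lost its call (adjusted p = 0.103). Myh11 had 0.21 (SE 0.37, adjusted p = 0.709) and Des −1.75 (SE 1.23, adjusted p = 0.338), and Des turned to 1.46 without the muscle-rich libraries.

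Without the 3 muscle-rich libraries 5 members were called by edgeR, Pdgfrb, Mcam, Higd1b, Acta2 and Tagln. Mcam passed under each of 12 other settings and in each of the 10 fits with a library left out. With 1 library left out in turn, Cspg4 kept its call in 7 of 10 fits, Tagln in 4 and Higd1b in 3. Leaving out aN1aN2aN3 replicate 2, 3 or 5 left Mcam as the only member called, with adjusted p values in edgeR of 0.0617 to 0.0654 for Cspg4, 0.0799 to 0.0854 for Higd1b and 0.0768 to 0.0838 for Tagln. Without aN1aN2aN3 replicate 4 or aJ1aJ2 replicate 1 or 3, Higd1b (0.0522 to 0.0720) and Tagln (0.0533 to 0.0789) missed the threshold, and without aJ1aJ2 replicate 2 Higd1b did (0.0760). Acta2 passed without aJ1aJ2 replicate 2 (0.0389) or 4 (0.0495) or aN1aN2aN3 replicate 1 (0.0200). Of 10 fibroblast genes 5 passed and were lower in the same comparison (median of the list −2.10), and of 6 adipose genes 3 did (median −2.33), against 10.4% of all genes called lower. Their part in the differences of the mural genes was not tested. Their sums were 1019 to 2578 against 448 to 1175 CPM for fibroblast and 826 to 1620 against 64.9 to 395 CPM for adipose genes (aJ1aJ2 first), with 0 of the 16 genes at 0 in either group.

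Against RW, none of the members was called by edgeR in any of the 5 comparisons. The 50 tests gave a lowest adjusted p of 0.367, and 3 had an unadjusted p below 0.05, against 6.59% (aJ1aJ2) and 14.4% (aN1aN2) of all genes at 15 hours, 11.8% and 10.0% at 5 days and 11.6% at 7 days. Groups did not overlap for 1 of 10 members at 15 hours after aJ1aJ2 and for 0 of 10 in the other comparisons with RW, where 5.12% (aN1aN2, 15 hours), 3.81% (aJ1aJ2, 5 days), 2.13% (aN1aN2, 5 days) and 3.51% (7 days) of all genes were so separated. Leaving Des aside, log2 fold changes lay between −0.62 and 0.87 with SEs of 0.11 to 0.60. The 95% interval excluded a 2-fold change in both directions in 26 of the 50 tests. That was so in all 5 comparisons for Pdgfrb and Higd1b, in 4 for Kcnj8 and Myh11, in 3 for Cspg4 and Mcam, in 2 for Tagln and in none for Abcc9, Acta2 and Des. For the last 3 genes a change of 2-fold was thus not excluded at this spread.

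At 15 hours after aJ1aJ2, 9 of 10 members had negative log2 fold changes, with a median of −0.43 against −0.03 for all genes. The test called 0.573% of genes, 0.346% higher and 0.227% lower. Kcnj8 was 9.87, 14.2, 12.8, 11.5 and 14.4 CPM in the RW libraries and 7.99, 8.25, 8.92, 9.84 and 9.37 CPM in the aJ1aJ2 libraries. Every treated library lay below every control, as for 1.81% of genes in either direction. The log2 fold change was −0.53 (SE 0.16, unadjusted p = 0.00513), and it missed the threshold over all genes (adjusted p = 0.367). Pdgfrb was 56.3 ± 6.41 CPM (SD, n = 5) under RW and 46.1 ± 7.10 CPM under aJ1aJ2, a log2 fold change of −0.32 (SE 0.12, adjusted p = 0.667). Cspg4 had −0.62, Abcc9 −0.46 and Higd1b −0.34. Mcam had the 1 positive value, 0.53 (SE 0.31), where replicate 3 of aJ1aJ2 reached 292 CPM and the other 4 libraries 91.8 to 111 CPM. The smooth muscle genes had −0.57 (Myh11), −0.39 (Acta2, SE 0.47), −0.14 (Tagln) and −0.64 (Des, SE 1.14).

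At 15 hours after aN1aN2 the 10 members ranged from −0.21 (Pdgfrb) to 0.32 (Acta2), with a median of −0.03 and 1.68% of all genes called. Acta2 was high in aN1aN2 replicates 2 and 5, at 137 and 214 CPM, and between 41.9 and 51.5 CPM in the other 3. The aN1aN2 libraries at 15 hours were scaled by the authors in another block of libraries than RW and aJ1aJ2 of that time, so that any effect of the block and of the antibody cannot be told apart. Both comparisons at 15 hours share the same RW libraries, as do both at 5 days.

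At 5 days, aJ1aJ2 gave log2 fold changes from −0.75 (Des) to 0.56 (Mcam, SE 0.27, adjusted p = 0.435), and 0.179% of all genes were called. The value of Des changed sign with single libraries and ran from −2.62 without aJ1aJ2 replicate 3 to 2.71 without RW replicate 3, and Abcc9 ran from −1.11 to 0.39 without the same libraries. Without all 3 muscle-rich libraries at 5 days Des had 0.86, and Tagln turned from 0.24 to −0.37. Mcam was 59.5 to 114 CPM in the RW libraries, median 86.6, and 80.9 to 221 CPM in the aJ1aJ2 libraries, median 118, with 4 of 5 above the control mean. With the muscle-rich libraries left out Mcam fell to 0.18 (edgeR adjusted p = 0.647), and Acta2 went from −0.13 to −0.71 (edgeR adjusted p = 0.331). Kcnj8 had 0.16 (SE 0.34). In RW replicate 3, the muscle-rich library, Kcnj8 was 22.7 CPM against 6.15 to 13.1 CPM in the other RW libraries. Under aN1aN2 at 5 days all 6 pericyte genes had negative values, with a median of −0.37 against −0.07 for all genes, and 3 of 4 smooth muscle genes had positive ones. The sign of Cspg4 and Mcam turned when libraries were scaled by their totals alone or by endothelial genes (0.13 and 0.08 for Cspg4, 0.09 and 0.20 for Mcam). In all, 8 of the 10 members changed sign under some alternative or left-out library, and only Pdgfrb and Higd1b stayed negative in every fit run. Without RW replicate 3, Kcnj8 had 0.10, Abcc9 0.62, Cspg4 0.21 and Des 3.07, and with limma-voom and library weights Myh11, Acta2 and Tagln had −0.15, −0.18 and −0.11. Without the 3 muscle-rich libraries at 5 days, Kcnj8 had 0.03, Abcc9 0.24 and Des 2.24, and Myh11 turned from 0.27 to −0.01. Pdgfrb was 74.8, 74.8, 54.4, 66.9 and 72.3 CPM under RW and 55.2, 39.4, 66.4, 44.5 and 54.9 CPM under aN1aN2. All 5 treated libraries were below the control mean, though the groups overlapped, and the log2 fold change was −0.40 (SE 0.17, adjusted p = 0.412). No gene at all (0%) was called by edgeR in that comparison. With an unadjusted p below 0.05 there were 10.0% of genes, and DESeq2 called 402 genes and limma-voom with library weights 1523.

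At 7 days in the first set, aJ1aJ2 gave positive values for all 4 smooth muscle genes, 0.33 for Myh11, 0.87 for Acta2 (SE 0.51), 0.57 for Tagln and 2.06 for Des (SE 1.01). None was called (lowest adjusted p 0.458 among the 10 members). Most of their size came from 2 libraries. Without aJ1aJ2 replicate 3 Myh11 had −0.01, Acta2 0.20 and Tagln 0.08, and without the muscle-rich aJ1aJ2 replicate 2 Des had 0.60 and the pericyte gene Abcc9 0.09. Acta2 was 44.6, 35.7, 34.0, 27.4 and 107.8 CPM under RW and 66.0, 52.3, 225, 62.1 and 45.6 CPM under aJ1aJ2, with 4 of 5 above the control mean. The pericyte genes lay between −0.26 (Kcnj8) and 0.61 (Abcc9), and Pdgfrb was 43.1 ± 5.77 CPM under RW and 41.7 ± 4.74 CPM under aJ1aJ2 (log2 fold change −0.03, 95% interval −0.28 to 0.22). The fast skeletal muscle genes had a median of 1.66 in the same libraries. edgeR called 0% of all genes here, with 11.6% at an unadjusted p below 0.05, while DESeq2 called 417 genes and limma-voom with library weights 595.

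**Figure D3:**
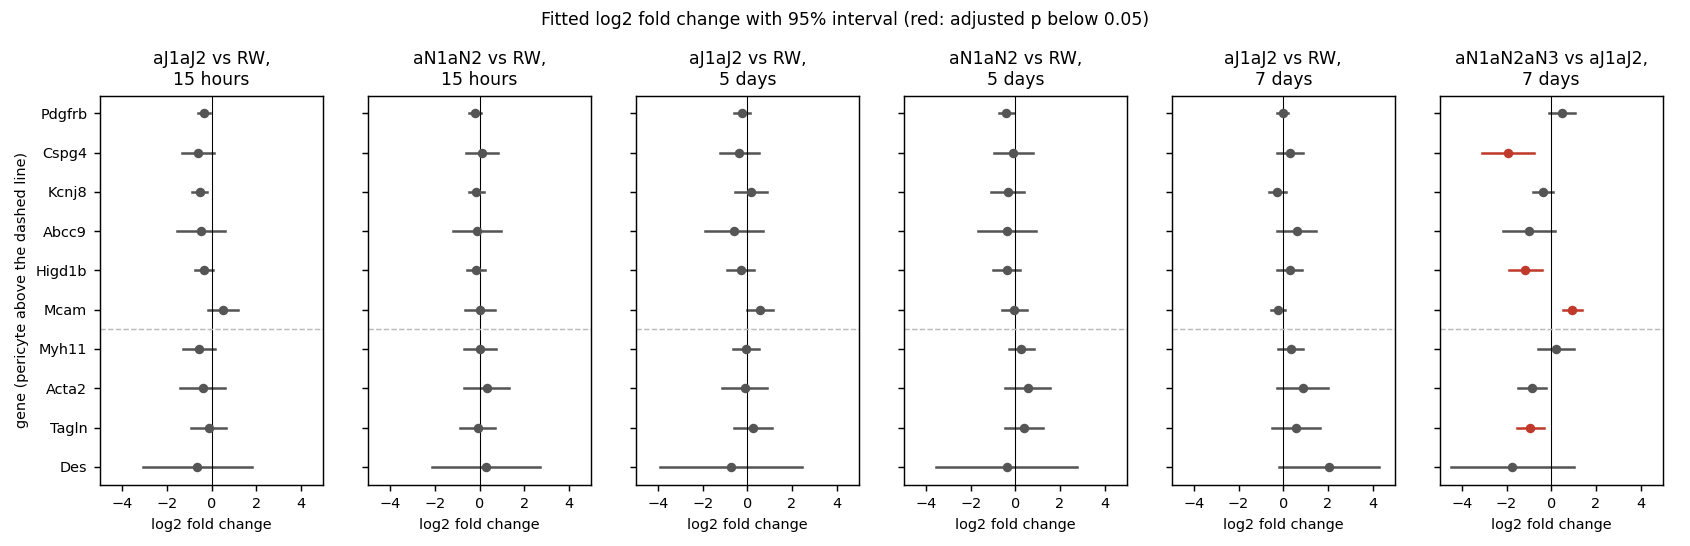
Log2 fold change (point) and 95% interval (line) of the 10 genes in the 6 comparisons, pericyte genes above the dashed line and smooth muscle genes below it. Red marks an adjusted p below 0.05, which only Cspg4, Higd1b, Mcam and Tagln reach, all in the comparison of aN1aN2aN3 with aJ1aJ2. Intervals of Des are the widest in every panel.

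The wide intervals of Des followed the muscle content. With the mean level of the 12 fast skeletal muscle genes as a covariate, the SE of Des fell from between 1.01 and 1.48 to between 0.11 and 0.29 over the 6 comparisons. Its log2 fold change went from 2.06 to 0.43 for aJ1aJ2 at 7 days and from −1.75 to −0.02 for aN1aN2aN3 against aJ1aJ2, and from −0.64 to −0.28 for aJ1aJ2 at 15 hours. In the other 3 comparisons its sign changed, from −0.75 to 0.34 (aJ1aJ2) and −0.39 to 0.18 (aN1aN2) at 5 days and from 0.29 to −0.15 for aN1aN2 at 15 hours. For Abcc9 the SE fell from between 0.40 and 0.60 to between 0.19 and 0.28, and for Cspg4 from between 0.27 and 0.53 to between 0.17 and 0.38. For Pdgfrb, Higd1b and Mcam the SEs stayed within a median ratio of 0.99 to 1.05. Even so, no member was called against RW with the covariate, and Acta2 joined the 4 called genes in the comparison of aN1aN2aN3 with aJ1aJ2 (log2 fold change −0.88, adjusted p = 0.0283). For aJ1aJ2 at 7 days Acta2 went from 0.87 to 1.19 with the covariate (SE 0.42, adjusted p = 0.369). Its value went from −0.13 to −0.45 (aJ1aJ2) and from 0.56 to 0.06 (aN1aN2) at 5 days. At 15 hours it went from −0.39 to −0.34 (aJ1aJ2) and from 0.32 to 0.11 (aN1aN2). The SE of Acta2 fell by a median ratio of 1.21.

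**Figure D4:**
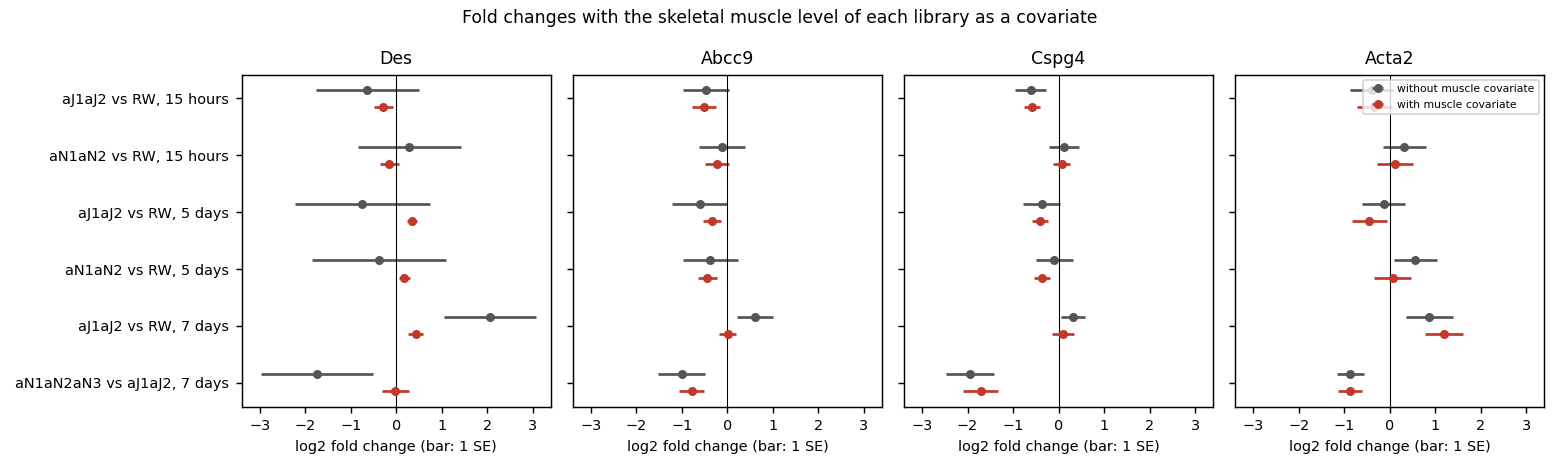
Log2 fold change of 4 members in the 6 comparisons without (grey) and with (red) the skeletal muscle level of each library in the model, bars showing 1 SE. The values of Des draw in towards 0 with SEs of at most 0.29, and those of Abcc9 and Cspg4 become tighter. The SEs of Acta2 fall less (median ratio without to with the covariate 1.21), while some of its values move.

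Outside the 10 members, other mural genes passed the test at 15 hours. Of 16 other pericyte genes, 4 passed and were lower at 15 hours after aJ1aJ2, against the same 0.227% of all genes. The lists were chosen with earlier results of these data known, so such shares, here and below, are descriptions and no test of enrichment. Rgs5 was 279 ± 43.2 CPM (SD, n = 5) under RW and 129 ± 24.9 CPM under aJ1aJ2 (log2 fold change −1.14, adjusted p = 0.00683). Cox4i2, a hypoxia-linked subunit of cytochrome oxidase (−1.56, adjusted p = 0.0341), Notch3 (−0.89, 0.0443) and Vtn, which encodes vitronectin (−1.88, 0.0460), were the others, and Ndufa4l2 had −1.79 with an adjusted p of 0.0652. In the same libraries no member's value reached below −0.64. At 7 days after aJ1aJ2 Rgs5 was 228 ± 38.9 against 77.5 ± 19.3 CPM (log2 fold change −1.53, adjusted p = 0.0655), and at 5 days after aN1aN2 it was 367 ± 134 against 106 ± 28.6 CPM (−1.79, 0.109). Heyl had −1.14 at 15 hours after aN1aN2 (adjusted p = 0.0783). No difference between these genes and the members was tested.

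Under aN1aN2aN3 relative to aJ1aJ2, all 16 other pericyte genes had negative values (median −0.77) and 4 passed, where 9.19% of all genes were called higher and 10.4% lower. Among these were Rgs5 (−1.27) and the transcription factor genes Tbx18 (−1.56) and Ebf1 (−1.10), while Notch3 had −0.14 and Heyl −0.08. Of 17 other smooth muscle genes tested, 4 were lower, the regulatory light chain gene Myl9 (−1.06), Sncg (−1.38), the caldesmon gene Cald1 (−0.61) and Nrip2 (−0.90). Among 20 genes of mural cell recruitment, Angpt1, the Tie2 ligand made by mural cells (−2.06), and Pdgfd (−0.81) were lower, and S1pr1, the sphingosine phosphate receptor of endothelium (1.00), was higher. Of 5 genes of the SRF and myocardin list tested there, 0 passed in edgeR and 1 had an unadjusted p below 0.05.

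**Figure D5:**
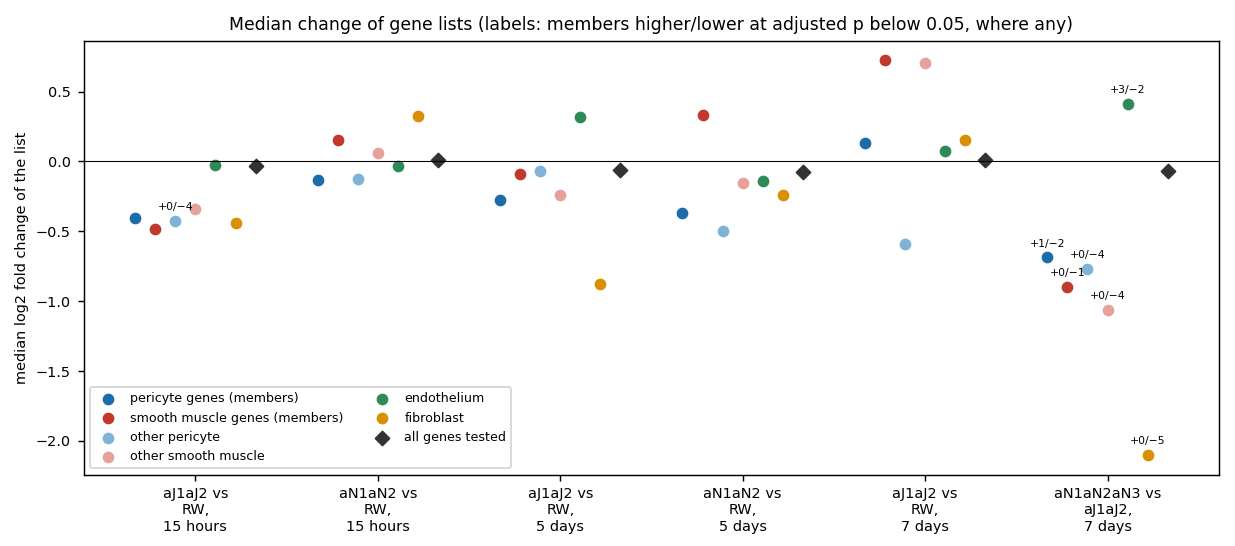
Median log2 fold change of gene lists in the 6 comparisons, with labels giving how many genes of a list were called higher and lower, where any were. At 15 hours after aJ1aJ2 the other pericyte genes are the 1 drawn list with calls, apart from all genes, and for aN1aN2aN3 against aJ1aJ2 every list drawn has some.

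The effect on the members was not found to change with time. For the aJ1aJ2 effect at 5 days against that at 15 hours 0 of 10 members passed in edgeR (0.981% of all genes did), with Kcnj8 alone at an unadjusted p below 0.05 (difference of log2 fold changes 0.70, SE 0.34, adjusted p = 0.395). Without RW replicate 3 at 5 days this difference was 1.08 (adjusted p = 0.0309), and without all muscle-rich libraries 0.98 (adjusted p = 0.0401). For the aN1aN2 effect (3.14% of all genes) and for the aJ1aJ2 effect at 7 days against 15 hours (0.300%) 0 of 10 passed, and 0 of 10 had an unadjusted p below 0.05 in either (16.5% and 7.40% of all genes did, and 12.2% in the first of these contrasts). The aN1aN2 contrast holds the 15-hour comparison whose libraries fall in different blocks, so any effect of the block and a change with time cannot be told apart in it.

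No level was tested between the sets at 7 days, and the differences are given as a description. From the first to the second set, aJ1aJ2 libraries differed by 2.29 on the log2 scale for Tagln and 1.30 for Higd1b, and by −2.77 for Myh11, −2.60 for Cspg4, −1.99 for Mcam, −1.87 for Pdgfrb and −1.72 for Abcc9. The median difference of all genes went with exon length, and it ran from 0.76 in the sixth of genes with the shortest exons to −0.85 in the sixth with the longest, and Tagln and Higd1b have 1.99 and 0.847 kb of exon against 11.9 kb for Cspg4 and 7.60 kb for Myh11. Not every member followed its length, since Mcam has 3.35 kb, while Acta2 with 2.20 kb differed by −0.23 and Des with 3.75 kb by −0.54. Within the second set the same medians ran only from −0.16 to 0.15, and with each library's length trend removed the same 4 members were called.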

How the data were processed

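Gene counts and FPKM values for 50 thyroid libraries were used as the authors deposited them. The submitters' processing notes name GSNAP and limma, whereas genome build, counting tool, annotation and strand use were not given in the sources used here. Per gene, the deposited counts are whole numbers without normalization. The authors' FPKM values, scaled in blocks of 30 and 20 libraries, follow the span of each gene and served only as an alternative. Each comparison was fitted with edgeR 4.0.16 (R 4.3.3, TMM scaling, minimum count 10, quasi-likelihood test) on the libraries of its time and set, with Benjamini-Hochberg adjustment over all genes tested and a threshold of 0.05. SEs and 95% intervals come from that fit. The difference of an effect between times was an interaction term over 40 libraries. DESeq2 1.42.0 and limma 3.58.1 were alternatives. Per kilobase levels use merged exons of GENCODE M21.

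Members were given by name, and named genes outside them are those of fixed lists that passed, plus Rgs5, Notch3, Heyl and Ndufa4l2 by value, and the 5 genes most like each member mean. The result of 1 listed gene is not reported here. The members and lists were chosen with earlier results of these data known. Of 100 library pairs within groups, none had counts agreeing within sampling noise (lowest chi-square per degree of freedom 15.6). No label says that replicates were separate animals, so p-values measure only the spread between these libraries. Replicate numbers were not used as pairs in the main fits, and whether they pair the libraries was not settled.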

Additional observations from a re-analysis of the deposited data

Results flagged for a closer look

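In 20 of 100 checks of a member within a group of 5 libraries, the highest library stood apart from the others by more than Dixon's 95% critical value. A chance rate of about 1 in 20 holds only for independent checks of normally distributed values. Members share libraries, and CPM were taken without a log, so the count is a description. Abcc9 did so at 227 CPM in aJ1aJ2 replicate 3 at 15 hours, at 618 CPM in RW replicate 3 and 296 CPM in aJ1aJ2 replicate 3 at 5 days, and at 288 CPM in aJ1aJ2 replicate 2 of the first set at 7 days. Des stood apart in the same 4 libraries, at 1585, 7411, 3767 and 4735 CPM. These libraries held the most fast skeletal muscle RNA of their groups, at 7.49%, 26.3%, 11.3% and 12.0% of scaled counts.

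The contractile genes stood apart in 3 libraries, of which aJ1aJ2 replicate 3 at 5 days is also among the muscle-rich ones above. In aJ1aJ2 replicate 3 of the first set at 7 days Myh11 was 159, Acta2 225 and Tagln 21.3 CPM, with muscle at 0.399%. In RW replicate 5 of that set Acta2 was 108, Tagln 15.9, Mcam 104 and Higd1b 3.18 CPM. In aJ1aJ2 replicate 3 at 5 days Acta2 was 132 and Tagln 16.0 CPM. Mcam reached 292 CPM in aJ1aJ2 replicate 3 at 15 hours, where genes of Schwann cells, the glia of peripheral nerves, summed to 481 CPM against 84.8 to 106 CPM in the rest of the group. Higd1b was 4.07 CPM in RW replicate 3 at 5 days and 6.07 CPM in aN1aN2aN3 replicate 1. The part of tissue content in these values was not tested.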

How the results depend on the processing

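Against RW, no member passed in the comparisons at 15 hours and 7 days under any alternative or with any library left out. With limma-voom and library quality weights, 2 members passed at 5 days after aJ1aJ2 (Kcnj8, log2 fold change 0.64, adjusted p = 0.00923, and Acta2, −0.79, 0.0391), 1 after aN1aN2 (Pdgfrb, −0.52, 0.0289) and 1 in the change of the aJ1aJ2 effect from 15 hours to 5 days (Kcnj8, 1.05, 0.000631). With 1 library left out in turn, that last count ranged from 0 to 1, and the 1 came without RW replicate 3 at 5 days. Leaving out the 7 libraries with more muscle than follicle RNA also gave 1 there (Kcnj8), and 5 in place of 4 for aN1aN2aN3 against aJ1aJ2. For aN1aN2aN3 against aJ1aJ2 the 4 members became 2 when scaled by library totals only (edgeR adjusted p = 0.0573 for Higd1b and 0.0761 for Tagln), and 1 to 5 with a library left out. The range over 12 alternatives was 2 to 6. A replicate block gave 2 members (Mcam and Cspg4). Whether numbers shared across groups pair libraries was not settled. In the 6 comparisons 1 to 4 of 5 same-numbered pairs correlated above 0.1, and pairs of different numbers were not compared. Of 3030 values of single genes, 2990 kept their side of the threshold (values never called may change sign), 23 were no longer past it, 17 newly passed and 0 reversed after passing. For aN1aN2aN3 against aJ1aJ2, 46.9% of all called genes were higher, 60.2% with library totals and 29.3% with endothelial scaling, and the median of all genes moved from −0.07 to 0.04 and −0.21. At 5 days library totals moved it from −0.06 to 0.16 (aJ1aJ2) and from −0.07 to 0.11 (aN1aN2), where endothelial scaling gave 0.15. FPKM was not run for aN1aN2 at 15 hours, whose libraries fall in different blocks. Removal of the exon length trend and of the muscle-rich libraries was added after seeing the data. Cspg4, at 0.392 to 1.42 CPM under aN1aN2aN3, is limited most by depth. The causes of these changes were not tested.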
